A study of Mus musculus with 4 samples.

Results

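Bone morphogenetic protein (BMP) signalling was followed at the RNA level in mouse tibialis anterior (TA) muscle through 10 genes: the receptors Bmpr1a, Acvr1 and Bmpr2, the signal carriers Smad1, Smad5 and Smad4, the inhibitor Smad6, and the targets Id1, Id2 and Id3. The genes were chosen by name as components and targets of the pathway, and all 10 were among the 13825 genes of the count table. All 10 were also among the 13084 genes that averaged 10 or more counts and entered the tests. The study compared WT with Fgf21KO mice, which lack the growth factor FGF21 in the whole body, in muscle labelled sham or after denervation by cutting the sciatic nerve of the left leg. All mice were adult males and all muscles were taken at 14 days. The sham groups are called WS (WT) and KS (Fgf21KO), and the denervated groups WD (WT) and KD (Fgf21KO). Each group was 1 library made from the pooled RNA of 4 muscles, so no spread between animals was measured. The WT mice were C57BL/6J, and the background of the Fgf21KO mice was not stated in the sources used here. The right leg served as the innervated side, so sham and denervated pools may hold muscles of the same mice. The sources differ on that leg: the series' design text says only that it stayed innervated, whereas the study's methods describe the same operation without cutting the nerve, so whether the sham values include an operation is not settled here.

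BMP ligands bind pairs of type I receptors (among them Bmpr1a and Acvr1) and type II receptors (among them Bmpr2). The activated type I receptor phosphorylates Smad1, Smad5 and Smad9, which join Smad4 and enter the nucleus, where the Id genes are among the best known targets. Id proteins are helix-loop-helix proteins without a DNA-binding region, and they hold E proteins and, through them, the myogenic factors away from DNA. Smad6 is induced by the pathway and inhibits it. In adult skeletal muscle BMP signalling is known for sustaining fibre mass, also after nerve injury.

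Promoter windows of 250 bases before the transcription start were at hand for 8 of the 10 genes, from RefSeq on the GRCm38.p6 build, whereas the submitters' notes name GRCm39 for the reads. The windows of Id2 and Id3, the Id genes with the largest denervation differences below, are printed 5′ to 3′ on the gene's strand. Capitals mark GGCGCC and GGAGCC on either strand, GC-rich hexamers of the kind bound by BMP Smads. Id2 lies at chr12:25096093-25096342 on the minus strand and Id3 at chr4:136143572-136143821 on the plus strand.
Id2: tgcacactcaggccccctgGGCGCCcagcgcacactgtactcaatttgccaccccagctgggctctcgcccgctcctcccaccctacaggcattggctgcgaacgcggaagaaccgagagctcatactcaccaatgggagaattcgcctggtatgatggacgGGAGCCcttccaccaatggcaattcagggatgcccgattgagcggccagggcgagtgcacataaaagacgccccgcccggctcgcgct
Id3: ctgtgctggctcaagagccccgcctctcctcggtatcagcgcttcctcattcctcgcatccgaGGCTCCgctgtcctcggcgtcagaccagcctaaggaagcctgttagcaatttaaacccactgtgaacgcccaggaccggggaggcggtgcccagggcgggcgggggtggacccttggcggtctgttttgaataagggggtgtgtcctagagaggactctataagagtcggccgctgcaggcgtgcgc
The Id2 window held 1 GGCGCC, from 231 to 226 bases before the start, and 1 GGAGCC, from 88 to 83 bases before it. The Id3 window held 1 GGAGCC on the opposite strand, from 187 to 182 bases before the start. At least 1 of the 2 hexamers was in 8 of the 10 windows of the members (Smad5 has several starts), and among the 8 genes with a window only Smad1 had none. Of all 32851 windows of this length, 31.7% held at least 1, GGCGCC being in 9.59% and GGAGCC in 26.0%. Among the 9178 windows with a GC content of at least 60%, where Id2 and Id3 both lie at 62.8%, the share was 60.8%. A match describes letters only, and binding was not measured.

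Counts over the genes of the table summed to 25249879 in WS against 29150147 in WD, and 34141303 in KS against 27740920 in KD. Every gene of the table had at least 1 read in each library, and the genotype label was not checked, because Fgf21 itself was not analysed here. The denervation label was checked on Ncam1, Gadd45a and Runx1, genes known to rise in denervated muscle, and all 3 rose. The fast-fibre genes Myh1 and Mylpf together made up 33830 CPM (counts scaled to a common library total) in WS against 20920 in WD. In Fgf21KO they made up 31690 CPM in KS against 23090 in KD. Each of these genes was lower after denervation in both genotypes. The other fast-fibre markers chosen were not analysed here.

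Raw counts depend on the size of each library, so directions are taken from scaled values. Where 4 values stand together without names, they follow the order WS, WD, KS, KD. Levels are given as CPM scaled by the trimmed mean of M values (TMM), and levels of different genes are compared only per kilobase (kb) of exon. Averaged over the 4 libraries, the order of the levels per kb was Smad4, Bmpr1a, Id3, Id1, Id2, Smad5, Bmpr2, Acvr1, Smad1 and Smad6. Smad4, the partner shared with TGF-β signalling, lay at 29.86 CPM per kb in WS against 18.7 in WD, and 27.53 in KS against 19.83 in KD. Smad6 lay at 2.512, 1.243, 2.164 and 1.17 CPM per kb in the same libraries. The place of Id2 depended most on surgery, being 10th in both sham libraries and 4th in both denervated ones. Neighbours in this order overlapped in their range over the libraries in several cases, such as Smad5 at 6.271 to 6.824 and Bmpr2 at 5.309 to 7.933 CPM per kb. With the longest transcript in place of all exons, 6 of the 10 genes kept their place.

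**Figure D1:**
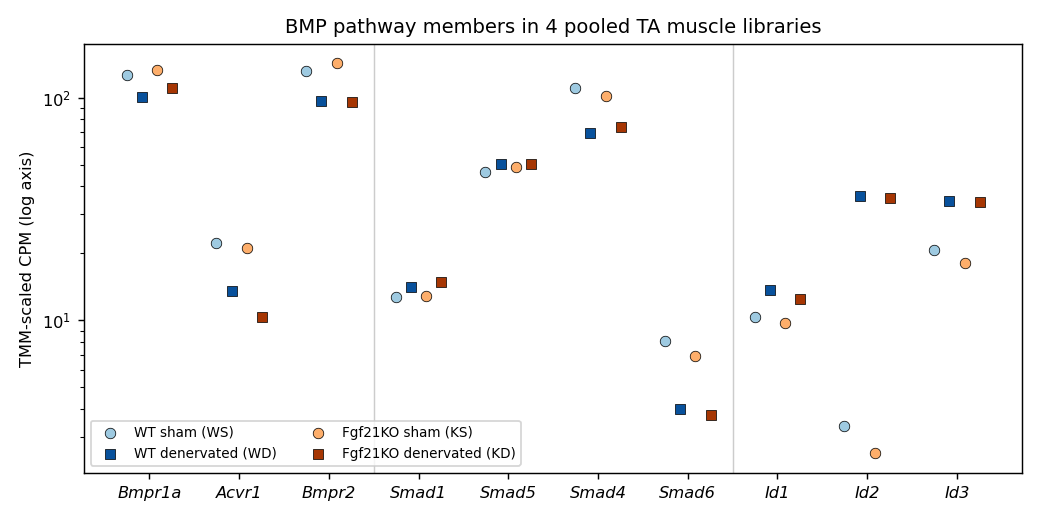
TMM-scaled CPM (log axis) of the 10 genes in the 4 pooled libraries, with receptors at the left, Smads in the middle and Id genes at the right; each point is 1 library, circles are sham and squares are denervated muscle. Id2 moved from 3.358 and 2.525 CPM in the sham libraries to 36.21 and 35.5 CPM in the denervated ones, and no other member moved as far.

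To find which genes differed with denervation in both genotypes, an additive model of surgery and genotype was fitted to all genes by the quasi-likelihood method of edgeR, and p-values were adjusted after Benjamini and Hochberg. A gene was called when its adjusted p was below 0.05 and its fold was at least 2 in either direction. Only Id2 was called among the 10 members, whereas 13.1% of all genes tested were called. By the adjusted p alone 8 of the 10 members passed, against 53.5% of all genes. Of these, Id1, Id2 and Id3 were higher, where 26.6% of all genes were higher, and Smad4, Smad6, Bmpr1a, Bmpr2 and Acvr1 were lower, where 27.0% of all genes were lower. By total-count scaling Bmpr1a was not lower and Id3 was called, as given below, and the other 8 kept their direction. The model treats the WT and Fgf21KO pairs as repeats and leaves 1 residual degree of freedom. Its p-values therefore rest on the disagreement between 2 pairs of pools, with the variance of each gene drawn towards that of all genes tested. Very small p-values depend on this borrowed variance, and none of them measures the spread between mice.

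Among the targets, Id2 stood far above the other Id genes in its response. Id2 went from 78 counts in WS to 1182 in WD, and from 75 in KS to 1098 in KD. Both denervated libraries lay far above both sham libraries, with no overlap between surgeries. Id2 rose 12.3-fold over both genotypes (log2 fold 3.62, adjusted p = 4.8e-19 by edgeR's quasi-likelihood test). The ratio was 10.6-fold in WT, the 58th highest of all genes tested, and 13.7-fold in Fgf21KO, the 47th highest.

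Id3 went from 481 counts in WS to 1122 in WD, and from 536 in KS to 1049 in KD. Its scaled level went from 20.7 CPM in WS to 34.37 in WD and from 18.05 in KS to 33.91 in KD, so the surgeries did not overlap. Id3 was 1.77-fold higher after denervation (log2 fold 0.82, adjusted p = 5e-08), which is below the fold threshold. With scaling by total counts alone its log2 fold was 1.14 and it was called.

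Id1, often used as the reference readout of BMP-Smad activity, went from 240 counts in WS to 445 in WD, and from 289 in KS to 386 in KD. Its scaled level was 10.33 and 9.73 CPM in the sham libraries and 13.63 and 12.48 CPM in the denervated ones, a small gap without overlap. Id1 was 1.3-fold higher (log2 fold 0.38, adjusted p = 0.0166), and in DESeq2's Wald test it did not pass (adjusted p = 0.189).

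The makeup of the Id transcripts differed accordingly. Id2 supplied 9.76% of the counts of the 3 Id genes in WS (95% Wilson interval 7.89 to 12.0) and 8.33% in KS (6.7 to 10.3). In the denervated libraries it supplied 43.0% in WD (41.2 to 44.9) and 43.3% in KD (41.4 to 45.3). These intervals and all others here cover counting error only. Per kb, Id3 remained the most abundant Id transcript in every library, while Id2 moved from the lowest of the 3 to above Id1. The summed level of the 3 genes was 21.84 CPM per kb in WS against 45.79 in WD, and 19.5 in KS against 44.25 in KD.

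**Figure D2:**
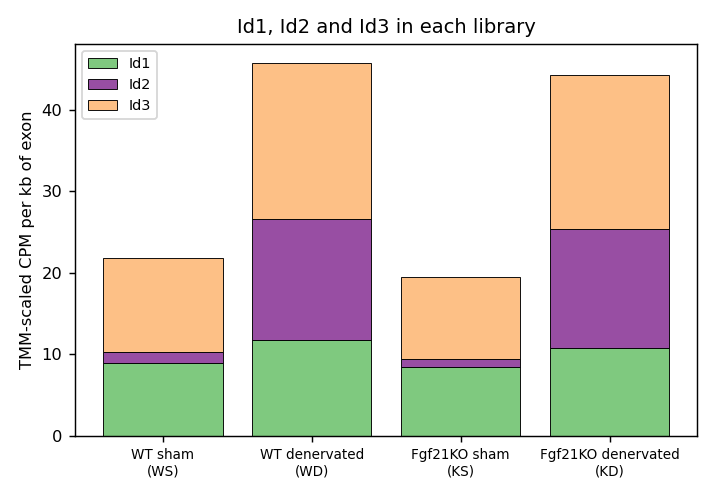
Stacked bars of TMM-scaled CPM per kb of exon for Id1, Id2 and Id3 in each pooled library, 1 library per bar and no error bar. The denervated bars reach 45.79 and 44.25 against 21.84 and 19.5 in sham, and the Id2 segment grows from 6.3% and 5.31% of the bar to 32.4% and 32.9%.

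The E proteins, the partners that Id proteins bind, stayed below the fold threshold. Tcf3 had a log2 fold of -0.40 (adjusted p = 0.00392). Tcf4 went from 1685 counts in WS to 2005 in WD, and from 1896 in KS to 1950 in KD (log2 fold -0.13, adjusted p = 0.18), and its sign turned under total-count scaling. Tcf12 had 763, 1487, 963 and 1471 counts (log2 fold 0.51, adjusted p = 9.91e-06). Of the 7 E protein and myogenic factor genes listed, only these 3 E proteins were tested. Of the 3, 0 were called, with 1 of them higher and 1 lower by the adjusted p alone. The myogenic factors of the list were not tested. The sum of Tcf3, Tcf4 and Tcf12 was 9.965 CPM per kb in WS against 9.181 in WD, and 8.854 in KS against 8.662 in KD. Per kb of exon, the summed Id level was 2.19 and 2.2 times that sum in the sham libraries WS and KS. It was 4.99 and 5.11 times that sum in WD and KD. These ratios depend on the exon lengths, and the longest transcript was tried only for the level order of the members. Without division by length, the E protein sum was the larger one in every library. It reached 123.1 CPM in WD, where Id1, Id2 and Id3 lay at 13.63, 36.21 and 34.37 CPM.

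The genes whose profile over the 4 libraries lay closest to that of each Id gene were taken from 10180 genes averaging 100 or more counts, by Euclidean distance between centred log2 CPM profiles. For Id2 these were Ncam1 (distance 0.0977), Rap1gap2 (0.212) and Ampd3 (0.221). Ncam1, the neural cell adhesion molecule that spreads over denervated fibres, went from 234 counts in WS to 3319 in WD, and from 235 in KS to 3298 in KD. For Id3 they were Tbcb (0.0248), Tubgcp4 (0.0327) and Esyt1 (0.0371), and for Id1 they were Fam98a (0.0204), Ebp (0.0243) and Ccdc97 (0.0268). With 4 libraries many genes lie close to a small change, so these distances are a description.

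Smad1 and Smad5, which carry the BMP signal from the receptor, did not pass the test. Smad1 went from 296 counts in WS to 463 in WD, and from 384 in KS to 460 in KD, and its scaled level was 12.74, 14.18, 12.93 and 14.87 CPM (log2 fold 0.18, adjusted p = 0.231). Smad5 had 1081, 1653, 1448 and 1562 counts, and its scaled level was 46.53, 50.64, 48.75 and 50.5 CPM (log2 fold 0.09, adjusted p = 0.391). The denervated libraries were the higher in both genes, by margins that were small beside those of Id2 and Id3 and smaller than that of Id1. Smad5 supplied 77.1% of the counts of Smad1, Smad5 and Smad9 in WS against 75.8% in WD, and 78.1% in KS against 74.9% in KD. With total-count scaling both passed the adjusted p alone, at log2 folds of 0.50 (Smad1, adjusted p = 0.00461) and 0.41 (Smad5, adjusted p = 0.000891), with all genes shifted upwards as given below.

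Smad4 went from 2575 counts in WS to 2266 in WD, and from 3035 in KS to 2277 in KD. The sham libraries, at 110.8 and 102.2 CPM, both lay above the denervated ones, at 69.41 and 73.61 CPM. The log2 fold was -0.57 (adjusted p = 2.43e-07), short of the fold threshold. Per kb, Smad4 was 3.6 times the sum of Smad1 and Smad5 in WS and 3.19 times in KS, against 2.06 times in WD and 2.16 times in KD.

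Smad6, the inhibitory Smad, went from 187 counts in WS to 130 in WD, and from 206 in KS to 116 in KD. Its scaled level was 8.049 and 6.936 CPM in the sham libraries and 3.982 and 3.75 CPM in the denervated ones, with a wide gap between surgeries. The log2 fold was -0.95 (adjusted p = 9.78e-05), just short of the threshold. The sum of Smad1 and Smad5 per kb was 3.31 times Smad6 in WS and 3.99 times in KS, and 7.32 and 7.85 times in WD and KD. Smad6 and the Id genes, all known as induced by BMP signalling, thus lay on opposite sides of 0.

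The 3 receptors were all lower after denervation, none by enough to be called, and under total-count scaling Bmpr1a lost its direction. Bmpr1a, a type I receptor, went from 2941 counts in WS to 3290 in WD, and from 3978 in KS to 3431 in KD, or 126.6, 100.8, 133.9 and 110.9 CPM. Its log2 fold was -0.30 (adjusted p = 0.000844), the smallest of the 5 lower genes, and with total-count scaling it was 0.02 (adjusted p = 0.806).

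Bmpr2, a type II receptor, had 3062, 3154, 4237 and 2953 counts. At 131.8 and 142.7 CPM in sham against 96.62 and 95.46 CPM in denervated muscle the surgeries did not overlap. The log2 fold was -0.51 (adjusted p = 7.68e-07).

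Acvr1, the type I receptor also known as ALK2, went from 518 counts in WS to 442 in WD, and from 628 in KS to 319 in KD. The KD library was the lowest, at 10.31 CPM against 13.54 in WD, 21.14 in KS and 22.3 in WS. The log2 fold was -0.87 (adjusted p = 3.95e-07). Acvr1 supplied 7.94% of the counts of the 3 receptors in WS against 6.42% in WD, and 7.1% in KS against 4.76% in KD. The gene models of Smad4, Bmpr1a and Acvr1 overlap a gene on the opposite strand, those of Smad5 and Bmpr2 overlap genes on the same strand, none of the overlapping genes was analysed here, and whether the counting used strand is not given in the sources used here.

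**Figure D3:**
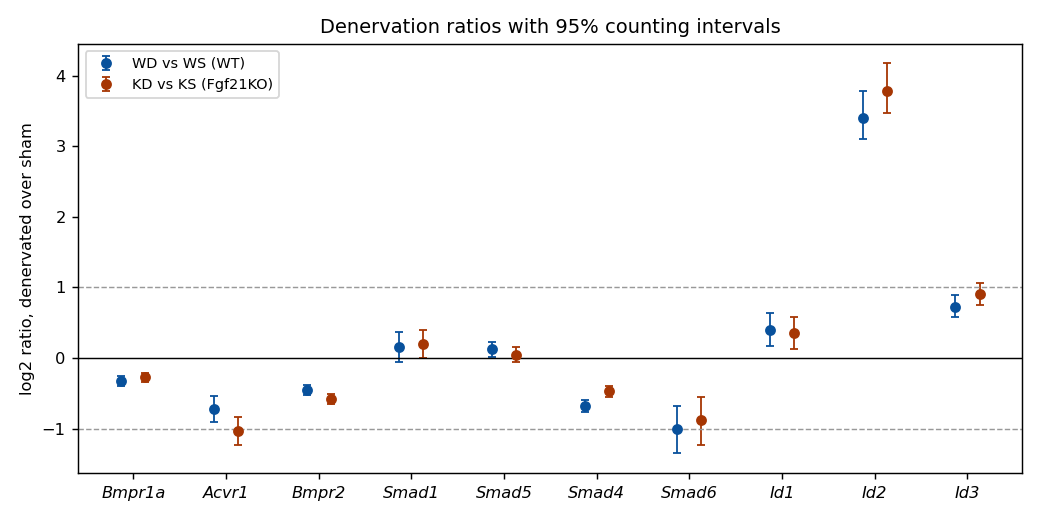
Log2 ratio of denervated over sham muscle for each gene in WT (blue) and Fgf21KO (brown), 1 library against 1, with 95% counting intervals as bars and dashed lines at 2-fold. All 10 genes lay on the same side of 0 in both genotypes, with Id2 at 3.40 and 3.78. The share of all genes for which this held was not counted.

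Within each genotype the contrast was 1 library against 1 and had no replicate check. In WT, Id2 and Smad6 were at least 2-fold apart between WD and WS, where 14.8% of all genes were. Smad6 lay at the limit, with a log2 ratio of -1.003 and a 95% counting interval from -1.35 to -0.68. In Fgf21KO, Id2 and Acvr1 were at least 2-fold apart between KD and KS, where 13.6% of all genes were. Acvr1 had a log2 ratio of -1.03 there (-1.23 to -0.84), against -0.72 (-0.91 to -0.53) in WT. Both Smad6 and Acvr1 dropped under 2-fold in the deposited log2 values. The median log2 ratio of the 10 members was -0.10 in WT and -0.11 in Fgf21KO, and that of all genes tested was 0.01 in both. With total-count scaling the median of all genes was 0.29 in WT and 0.36 in Fgf21KO, so that scaling moved every gene upwards by about that much, and the members' ratios relative to the median differed little from those given (Id1 0.39 in WT and 0.35 in Fgf21KO).

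**Figure D4:**
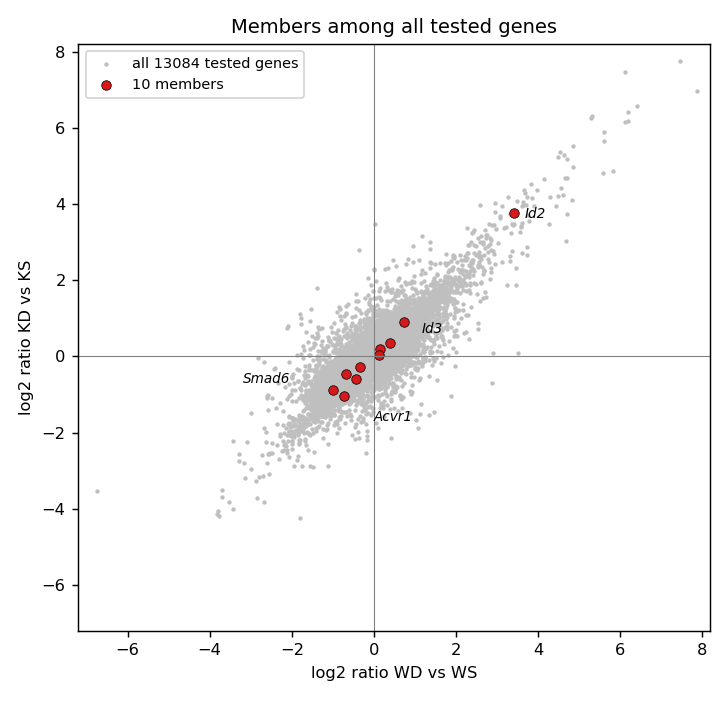
Log2 ratio of WD over WS (x axis) against KD over KS (y axis) for all 13084 tested genes (grey) and the 10 members (red), each axis comparing 1 pooled library with 1. Id2 lies in the upper right arm at 3.40 and 3.78, and the other 9 members lie between -1.03 and 0.91 on both axes, with Smad6 and Acvr1 lowest.

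The comparison of genotypes asked whether loss of FGF21 went with other levels of these genes. By the additive model 0 of the 10 were called, 0 passed by the adjusted p alone and 0 had an unadjusted p below 0.05 in edgeR's quasi-likelihood test, and DESeq2's Wald test called 0. Of all genes, 0.176% were called. The adjusted p ran from 0.685 (Acvr1) to 0.981. In the single contrasts 0 members were at least 2-fold apart between KS and WS, where 2.04% of all genes were, and 0 between KD and WD, where 1.55% were.

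Id2 had the largest genotype ratio in sham muscle, a log2 ratio of -0.40 between KS and WS from 75 and 78 counts with a counting interval that covers 0, and between KD and WD its log2 ratio was -0.03. In denervated muscle Acvr1 had the largest, at -0.39 (95% counting interval -0.61 to -0.18), against -0.08 in sham muscle. The counting interval also left out 0 for Id3, Smad4, Bmpr1a and Bmpr2 in sham muscle, and for Smad4 and Bmpr1a in denervated muscle. Bmpr1a was higher in Fgf21KO in both, at 0.08 and 0.14. With total-count scaling its log2 ratio was 0.0005 in sham muscle. The share of all genes with such intervals was not counted. The median absolute log2 ratio of the members was 0.0999 in sham and 0.0763 in denervated muscle, where that of all genes was 0.149 and 0.112. A missed threshold in 4 pools does not show that the genotypes were alike.

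The difference of the denervation ratios, Fgf21KO minus WT, could not be tested, since it takes up the last residual degree of freedom. At least 2-fold differences were found in 0 of the 10 members and in 4.11% of all genes. The difference was 0.37 on the log2 scale for Id2, 0.18 for Id3 and -0.04 for Id1. Its 95% counting interval left out 0 for Smad4 (0.20), Bmpr2 (-0.13) and Acvr1 (-0.31). These contrasts share libraries with those above.

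The rest of the pathway was described by 6 lists of 68 genes, of which 44 were tested. Of the 44, 14 were called (31.8%), 6 higher and 8 lower, beside 13.1% of all genes, of which 895 were higher and 816 lower. The lists were chosen with earlier results of these data known, so their share beside that of all genes is only a description. DESeq2's Wald test called 10 of these pathway genes, and edgeR's test called 11 with a mean count of at least 50. The share of all genes called under these 2 settings is not given here. With total-count scaling 8 of the 44 were called, 7 higher and 1 lower. Of all 13084 genes 2029 were then called, 1705 higher and 324 lower, so the shares lay closer together. Of the pathway genes that fell, only Acvr2b was still called lower under that scaling. Among the BMP ligands, 5 of 14 were tested and only Bmp6 was called. Bmp6, a ligand also known from iron regulation, went from 332 counts in WS to 165 in WD, and from 419 in KS to 220 in KD, and it fell (log2 fold -1.23, adjusted p = 5.41e-08).

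Of 16 extracellular antagonists 10 were tested, and 2 rose. Fst encodes follistatin, which binds activins, myostatin and some BMPs, and it went from 30 counts in WS to 592 in WD, and from 26 in KS to 533 in KD (log2 fold 4.05, adjusted p = 7.63e-17). Chrd encodes chordin, which binds BMPs outside the cell, and it had 113, 608, 125 and 522 counts (log2 fold 1.97, adjusted p = 1.6e-12). Both denervated libraries lay several-fold above both sham libraries in each gene. The other 8 antagonists included 2 that were higher and 2 that were lower by the adjusted p alone.

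Among the other receptors and co-receptors 8 of 9 were tested, 4 fell and 0 rose. Acvr2b, a type II receptor shared by activins and myostatin, went from 1341 counts in WS to 596 in WD, and from 1577 in KS to 460 in KD (log2 fold -1.75, adjusted p = 1.34e-15). Hjv, the BMP co-receptor hemojuvelin that muscle expresses strongly, had 18743, 13001, 24517 and 10359 counts (log2 fold -1.16, adjusted p = 2.18e-13). Eng, the endothelial co-receptor endoglin, had 1259, 816, 1232 and 647 counts (log2 fold -1.05, adjusted p = 5.54e-11). The remaining gene that fell was Bambi, a pseudoreceptor that holds back signalling (log2 fold -1.02, adjusted p = 0.00542).

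All 12 other Smads and intracellular regulators were tested, 1 rose and 2 fell. Smad9, the third BMP receptor Smad, rose from 25 counts in WS to 66 in WD and from 22 in KS to 64 in KD (log2 fold 1.19, adjusted p = 0.00462). Ppm1a, a phosphatase that acts on Smads, went from 6496 counts in WS to 4403 in WD, and from 8203 in KS to 3969 in KD (log2 fold -1.08, adjusted p = 1.74e-13). Tob2, of the Tob family known for restraining BMP Smads, fell by 1.01 on the log2 scale (adjusted p = 1.1e-11). Even after its rise Smad9 gave 3.02% of the receptor Smad counts in WD and 3.07% in KD.

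Of 10 other BMP targets 6 were tested, 3 rose and 1 fell, the homeobox gene Msx1 (log2 fold -1.18, adjusted p = 0.00562). Atoh8, a basic helix-loop-helix factor, went from 156 counts in WS to 644 in WD, and from 189 in KS to 585 in KD (log2 fold 1.56, adjusted p = 3.61e-11). Runx2, the osteoblast factor, had 28, 58, 12 and 73 counts (log2 fold 1.44, adjusted p = 0.00292). Its ratio was 1.45-fold in WT, with a log2 counting interval from -0.11 to 1.27 that covers 0, and 5.14-fold in Fgf21KO, so the joint fold rests mainly on the Fgf21KO pair. Fbxo30, the ubiquitin ligase MUSA1, which BMP signalling is known to hold back in muscle, had 472, 1906, 651 and 1714 counts (log2 fold 1.43, adjusted p = 6.95e-14). Of the other tested targets, Hey1 had a log2 fold of -0.52 (adjusted p = 0.0462) and Id4 one of -0.06 (adjusted p = 0.898).

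**Figure D5:**
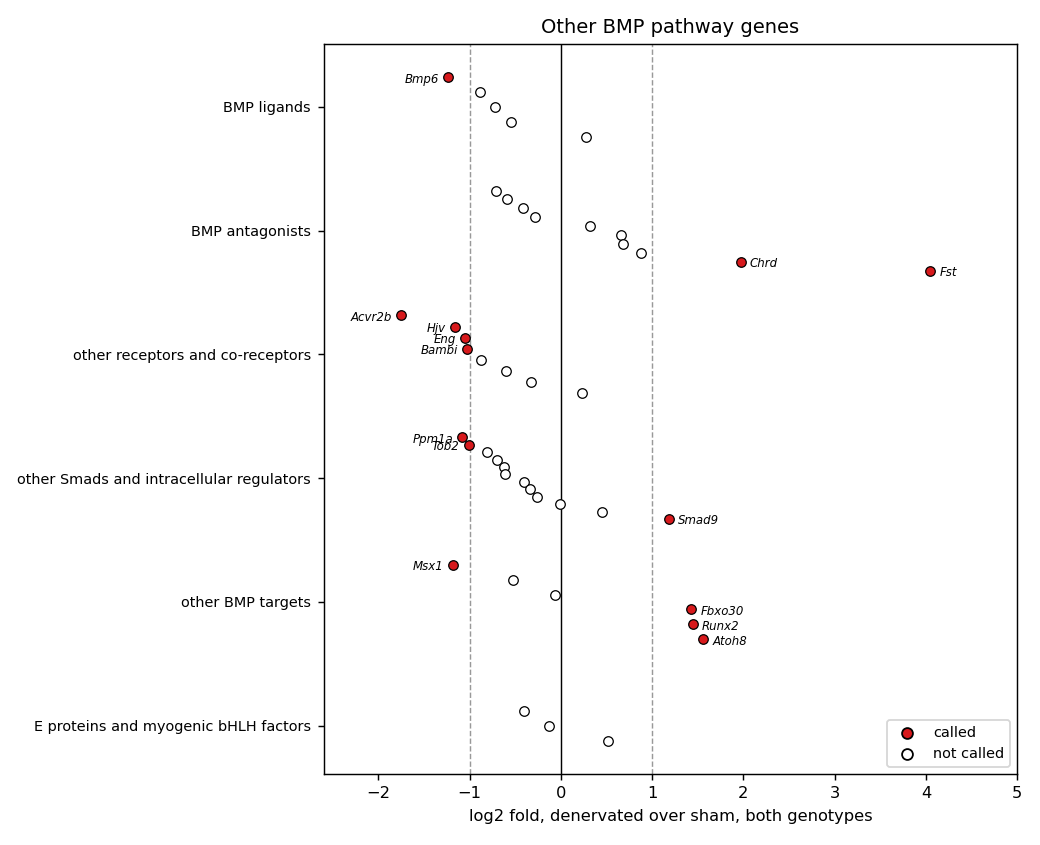
Log2 fold of denervated over sham muscle from the additive model for the 44 tested genes of the 6 other pathway lists, 1 point per gene, with called genes filled and named and dashed lines at 2-fold. Fst at 4.05 and Chrd at 1.97 lie at the right, and the 4 called receptors and co-receptors, led by Acvr2b at -1.75, at the left.

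Markers of other cell types moved with denervation as well. All 8 endothelial markers were lower in both genotypes and 4 of them fell, their summed level being 474.7 to 570.9 CPM in the sham libraries and 255.7 to 264.0 CPM in the denervated ones. All 5 tested pericyte and smooth muscle markers fell, from a sum of 703.8 CPM in WS to 293.1 in WD and from 654.6 in KS to 291.8 in KD. With total-count scaling all 8 and all 5 of these markers were again lower, but 0 were called in the same test. The 5 lower members (Smad4, Smad6, Bmpr1a, Bmpr2 and Acvr1) shared the direction of these markers, which follows from grouping them by direction. Id1, Id2 and Id3 went the opposite way, as did all 7 macrophage markers in both genotypes, and Smad1 and Smad5 did not pass the test. Of 7 macrophage markers 3 rose, their sum going from 29.74 CPM in WS to 67.02 in WD and from 31.51 in KS to 65.66 in KD. Of 7 markers of fibro-adipogenic progenitors and fibroblasts 0 were called in edgeR's quasi-likelihood test and 5 were lower by the adjusted p alone, their sum being 831.4 and 845.5 CPM in the sham libraries WS and KS and 554.8 and 557.3 CPM in WD and KD. Among Schwann cell markers 3 of 6 were tested, of which Prx fell and 2 were lower by the adjusted p alone, Prx included, and among satellite cell markers 4 of 6 were tested, of which Sdc4 rose and the other 3 had lower values in both genotypes (Cd34 with a log2 fold of -0.72 and an adjusted p of 1.23e-08). None of the tested markers was at 0 in any library, which holds for every gene of the table and says nothing of cell types. The part of cell makeup in the values of the BMP genes was not tested. In whole muscle, fewer cells of a type and less RNA per cell cannot be told apart.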

How the data were processed

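Poly(A) RNA of TA muscle was sequenced as stranded libraries, 1 pool of 4 muscles per group. The authors deposited read counts per gene, without normalization, and the submitters' processing notes name FastQC and GRCm39. The aligner and counter are not given in the sources used here. A second deposited table, named for FPKM by the authors, holds log2 values that come from the counts: each count was multiplied by a factor of its library, 1 was added and the log2 taken (deviation at most 0.000712%), so it was used only as an alternative. Total counts ran from 25249879 to 34141303.

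Genes averaging 10 or more counts (13084 of 13825) were scaled by TMM and tested with edgeR 4.0.16 in R 4.3.3 (glmQLFit, glmQLFTest, genotype plus surgery), with Benjamini-Hochberg adjustment over all genes. The common biological coefficient of variation was 0.0681. Single contrasts were log2 CPM ratios at a prior count of 2, with exact conditional binomial 95% intervals (scipy 1.17.1) and no test. The fitting step was tested on simulated counts with equal variation in all genes and far fewer changed genes than passed here. The interval step was tested on simulated counts with counting error alone. Both settings are simpler than the data. Gene lengths were exon unions of GENCODE annotation on the GRCm38 build. DESeq2 1.42.0, other scalings, filters, prior counts and call rules were tried as alternatives. Each pathway list was named by its 3 largest called genes, or its 2 most abundant where none was called; Bambi, Msx1, Hey1, Id4, Tcf3, Prx, Sdc4 and Cd34 fall outside this rule and were chosen after their values were seen. The members and lists were chosen with earlier results of these data known. Protein sequences were not used here.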

Additional observations from a re-analysis of the deposited data

Results flagged for a closer look

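In 3 genes the Fgf21KO over WT log2 ratio had opposite signs in sham and in denervated muscle, each from 1 library per group, and the difference was not tested. In Smad4 it was -0.12 in sham and 0.08 in denervated muscle, a difference of 0.20. In Bmpr2 it was 0.11 and -0.02, a difference of -0.13. In Smad5 it was 0.07 and -0.004, a difference of -0.0711. All of these differences are far below 2-fold. The share of all genes with such opposite signs was not counted, so these 3 genes are only a description. The denervation ratios had the same sign in both genotypes in all 10 genes, and the share of all genes for which this held was not counted.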

How the results depend on the processing

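No paired analysis was possible because every group has a single pool of RNA, and for the same reason no library could be left out of a group. Of the 63 comparisons of a count of genes or of the level order with an alternative, 51 stayed within 1.5 times the main value or kept its order. Many of the 51 were counts of 0 that stayed 0, namely those for genotype and for the difference of the denervation ratios. All 12 that moved were among the other comparisons. With total-count scaling, denervation called 2 members (1 in the main analysis) and 8 pathway genes (14 in the main analysis), the log2 fold of Bmpr1a for denervation turned to 0.0209 and that of Smad5 for genotype to -0.0118. Without the fold threshold, 8 members and 35 pathway genes passed. The 2 members at least 2-fold apart between WD and WS became 1 without a filter, with a mean count of at least 50, with a prior count of 5, in the deposited log2 values and in an exact test by edgeR that assumes a coefficient of variation of 0.4 between animals. The 2 between KD and KS became 1 in the deposited log2 values and in that exact test. With the longest transcript as length, 6 of the 10 members kept their place in the level order. DESeq2 size factors moved none of the counts of members. The cause of these shifts was not tested. Under total-count scaling the denervation ratios of all genes moved upwards, as given above. Counting intervals cover the reads of these 4 libraries and say nothing of other mice, and they are wide for genes with few counts, such as Id2 in sham muscle (KS vs WS from -0.89 to 0.07).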
